A study of Mus musculus with 6 samples.

Results

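The enzymes that make and clear deoxynucleotides, the building blocks of DNA, were examined in haematopoietic stem cells sorted from mice in which doxycycline switches on ETV6-RUNX1, a fusion gene of childhood leukaemia. The set comprised 9 genes, Rrm1, Rrm2, Rrm2b, Dctd, Dut, Tyms, Tk1, Dck and Samhd1, taken by symbol from the 55471 gene IDs of the deposited expression table. Each of the 9 matched a single row, and all 9 reached the mean of 1 TPM required for testing, as did 13470 genes in all. TPM, the unit of that table, is a length-corrected share of a library, so levels can be compared between genes. Both groups carried the ETV6-RUNX1 genotype. The uninduced group had received no doxycycline (3 libraries), and the induced group had received doxycycline in food for 2 weeks (3 libraries). Cells were sorted as Lin- Kit+ Sca1+ CD48- CD150+. The labels give no strain, age or sex, and do not say what drives the fusion gene. A group given doxycycline without the fusion was not analysed here, so the agent and the fusion cannot be told apart. No label says which libraries came from separate mice. The p-values thus set each group difference against the spread between these libraries only, and cannot be extended to mice in general.

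Deoxynucleotides arise by a de novo route and by salvage. In the de novo route ribonucleotide reductase, a complex of the large subunit Rrm1 with a small subunit, Rrm2 or Rrm2b, reduces ribonucleotides. Dctd and Dut then supply deoxyuridine monophosphate and Tyms methylates it to thymidylate. Salvage kinases such as Tk1 and Dck phosphorylate deoxynucleosides taken up from outside or released inside the cell, while Samhd1 hydrolyses deoxynucleoside triphosphates. Rrm2, Tyms and Tk1 are known as genes expressed mainly around S phase, and Rrm2b as a p53-induced subunit used outside it. Haematopoietic stem cells are mostly quiescent, and Dck supports deoxynucleoside salvage in developing blood cells.

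The promoters of both subunits of ribonucleotide reductase are shown because Rrm1 and Rrm2 moved together in the data. They are from RefSeq (GRCm38.p6, the build named in the submitters' processing notes being GRCm38) and end before the first annotated start of each gene. Rrm1 lies on the plus strand at chr7:102441445-102441694 and Rrm2 on the plus strand at chr12:24708004-24708240. Capitals mark matches to CCAAT, to ATGGCGGC or to TTCCCGC, each searched on both strands.

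Rrm1: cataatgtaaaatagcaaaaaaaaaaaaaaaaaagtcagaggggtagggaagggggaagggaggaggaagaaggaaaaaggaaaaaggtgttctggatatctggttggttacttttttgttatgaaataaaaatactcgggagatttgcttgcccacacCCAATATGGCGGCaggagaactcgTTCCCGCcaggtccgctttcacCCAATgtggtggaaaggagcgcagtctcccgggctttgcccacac

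Rrm2: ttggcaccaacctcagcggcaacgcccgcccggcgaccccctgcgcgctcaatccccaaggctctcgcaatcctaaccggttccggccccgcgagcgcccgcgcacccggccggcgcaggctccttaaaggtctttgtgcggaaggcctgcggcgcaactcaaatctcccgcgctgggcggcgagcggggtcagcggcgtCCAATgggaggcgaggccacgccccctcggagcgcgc

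The windows searched were the 250 bases before the start, with 10 windows for 8 of the 9 genes, all but Rrm2b, among 32851 windows of all RefSeq genes in the table. The CCAAT letters lay 91 and 45 bases before the Rrm1 start, the first of them next to ATGGCGGC, and 50 bases before the Rrm2 start. These distances are from the RefSeq starts, and the Rrm2 sequence is printed without the last 13 bases of its window, which lie inside the gene as GENCODE annotates it. CCAAT was present in 4 of the 10 windows and in 33.8% of all windows. Of those 4, 2 are overlapping Dctd windows that hold the same letters at the same position, and both lie inside the Dctd gene as GENCODE annotates it, as the Dut window lies inside Dut. The other motifs were rarer: ATGGCGGC was in 1 of the 10 and in 1.03%, and TTCCCGC in 1 of the 10 and in 3.82%. These 3 motifs were chosen after the sequences were seen. The E2F-type letters TTTCCCGC, TTTGGCGC, TTTCGCGC and TTTGCCGC were in none of the 10 windows and in 1.86% of all windows, which says only that these letters are not in these 250 bases. The window of Rrm2 had 72.4% G and C and 34 CpG dinucleotides, and that of Rrm1 had 46.0% and 7, so the promoters of the 2 subunits differ in base composition.

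Induced libraries had lower levels of most of the 9 transcripts. Of the 9, 6 fell (Rrm1, Rrm2, Dctd, Dut, Tyms and Tk1) and 0 rose at a limma adjusted p under 0.05, where 10.2% of all tested genes fell and 1.29% rose. At an unadjusted p under 0.05 the same 6 were lower and 1, Samhd1, was higher, against 24.2% and 3.73% of all tested genes. The groups did not overlap for 7 lower members and 1 higher member, against 28.2% and 4.83% of all tested genes. The median log2 change of the 9 was -1.57, and that of all tested genes was -0.35. The typical tested gene was thus lower in induced libraries, with nuclear protein-coding genes holding 20.5% to 23.2% of the TPM there and 26.6% to 32.9% in uninduced libraries. The change of each of the 9 genes is also given after median-of-ratios scaling, which divides a library by its typical ratio to the other libraries and brings the median change of all genes to 0.0032. On that scale 5 of the 9 fell and 1, Samhd1, rose, where 3.1% of all tested genes fell and 2.88% rose. In bulk RNA, fewer cells with a transcript and less transcript per cell cannot be told apart.

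**Figure D1:**
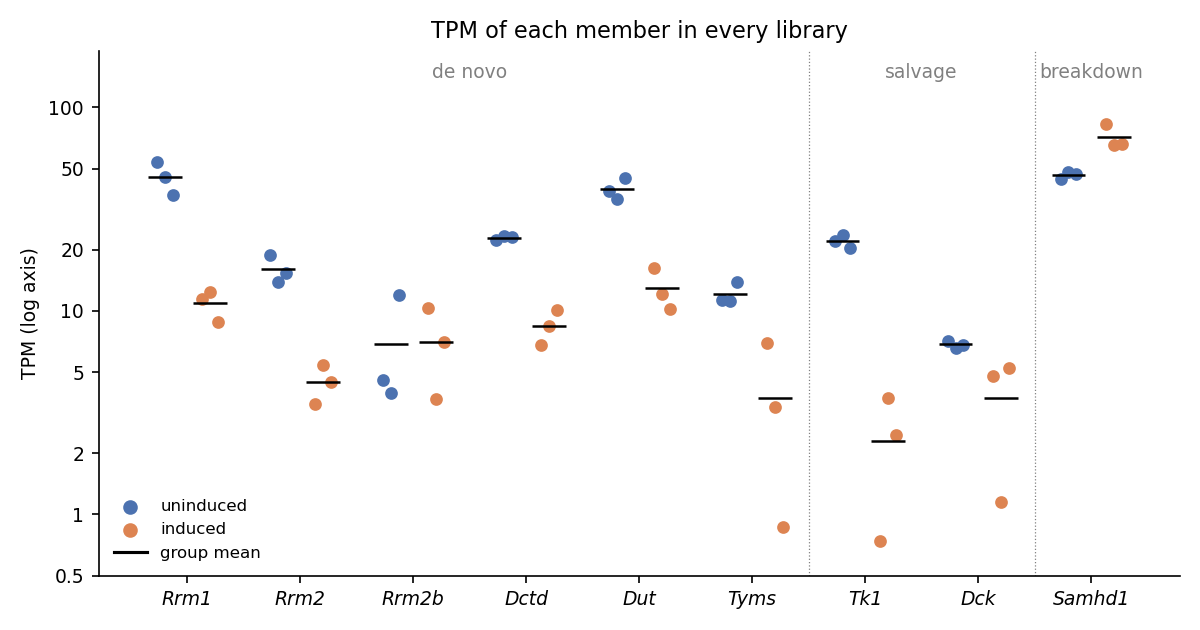
TPM of the 9 genes in each of the 6 libraries on a log axis, with points for libraries and lines for group means. All 3 induced points lie below the 3 uninduced points for 7 genes, they overlap for Rrm2b, and they lie above for Samhd1.

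Rrm1 (ENSMUSG00000030978, chr7:102441695-102469771, plus strand), the large subunit that holds the catalytic and regulatory sites, was at 54.2, 45.7 and 37.0 TPM in uninduced and at 11.5, 12.4 and 8.86 TPM in induced libraries. The groups lay far apart. In TPM the SD was 8.58 at a mean of 45.6 in uninduced libraries and 1.85 at a mean of 10.9 in induced libraries. The log2 change was -1.96 (SE 0.24, limma adjusted p 0.00185), and -1.58 after median-of-ratios scaling (adjusted p 0.00650). The uninduced mean was 4.18 times the induced mean. Only 187 of the 13470 tested genes had a lower log2 change.

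Rrm2 (ENSMUSG00000020649, chr12:24708241-24714146, plus strand), the small subunit that carries the tyrosyl radical in dividing cells, was at 18.8, 13.9 and 15.3 TPM in uninduced and at 3.49, 5.44 and 4.46 TPM in induced libraries. It fell with no overlap by 1.64 log2 units (SE 0.29, limma adjusted p 0.00719), and by 1.28 after median-of-ratios scaling (adjusted p 0.0335). The ratio of Rrm2 to Rrm1 TPM was 0.347, 0.304 and 0.414 in uninduced and 0.305, 0.438 and 0.503 in induced libraries. On the log2(TPM + 1) scale the within-library difference of Rrm2 and Rrm1 shifted by 0.32 between the groups, which overlapped (exact two-sided permutation p 0.2, adjusted over 7 pairs 0.28). With 3 libraries in each group this test cannot give a p below 0.1, so no pair of genes could pass it, and the shifts of all 7 pairs are descriptions.

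Rrm2b (ENSMUSG00000022292, chr15:37923952-37961318, minus strand), the alternative small subunit, was at 4.59, 3.94 and 12.03 TPM in uninduced and at 10.4, 3.69 and 7.01 TPM in induced libraries. The groups overlapped across nearly their whole range, and the spread within each was large. The log2 change was 0.083 (95% interval -0.95 to 1.11, limma adjusted p 0.927), an interval that includes a change of nearly 1 log2 unit in either direction. After median-of-ratios scaling it was 0.42 (adjusted p 0.672). Rrm2b made up 19.6%, 22.1% and 44.0% of the TPM of both small subunits in uninduced libraries, and 74.8%, 40.4% and 61.1% in induced libraries. Those shares overlapped, and uninduced replicate 3 had the highest Rrm2b level of the 6 libraries. The within-library difference of Rrm2 and Rrm2b was 1.25 ± 0.807 log2 units (SD, n = 3) in uninduced and -0.48 ± 0.901 (SD, n = 3) in induced libraries, a shift of -1.73 (exact two-sided permutation p 0.2, adjusted 0.28). The processed pseudogene Gm3362 overlaps Rrm2b by 466 bases on the same strand and had 13.4 to 21.8 TPM in uninduced and 7.34 to 11.4 TPM in induced libraries, so the assignment of reads between this pair is uncertain.

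Dctd (ENSMUSG00000031562, chr8:48099092-48153233, plus strand), which deaminates deoxycytidylate to deoxyuridylate, was at 22.2, 23.3 and 23.0 TPM in uninduced and at 6.77, 8.45 and 10.1 TPM in induced libraries. The uninduced libraries differed little among themselves. Its log2 change was -1.35 (SE 0.24, limma adjusted p 0.00877), and -0.97 after median-of-ratios scaling (adjusted p 0.0415). Dut (ENSMUSG00000027203, chr2:125247190-125258608, plus strand), which hydrolyses dUTP and so keeps uracil out of DNA, was at 38.9, 35.6 and 45.2 TPM in uninduced and at 16.3, 12.2 and 10.3 TPM in induced libraries. It fell by 1.57 log2 units (SE 0.24, limma adjusted p 0.00450), and by 1.18 after median-of-ratios scaling (adjusted p 0.0283). These enzymes both feed deoxyuridylate to thymidylate synthase. Their within-library difference was 0.772 ± 0.178 log2 units (SD, n = 3) in uninduced and 0.550 ± 0.574 (SD, n = 3) in induced libraries, with an exact two-sided permutation p of 0.6 (adjusted 0.6).

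Tyms (ENSMUSG00000025747, chr5:30058202-30073617, minus strand), thymidylate synthase, was at 11.3, 11.2 and 13.8 TPM in uninduced and at 6.98, 3.38 and 0.871 TPM in induced libraries. The induced libraries ranged over several fold, yet each lay below every uninduced library. The log2 change was -1.70 (SE 0.48, limma adjusted p 0.0489), close to the threshold. The call was lost under 13 of 17 alternative settings, among them median-of-ratios scaling (-1.35, adjusted p 0.168) and leaving out any library other than induced replicate 1. The processed pseudogene Tyms-ps, whose transcript shares 93.9% of 935 aligned bases with Tyms, was at most 0.263 TPM in any library.

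**Figure D2:**
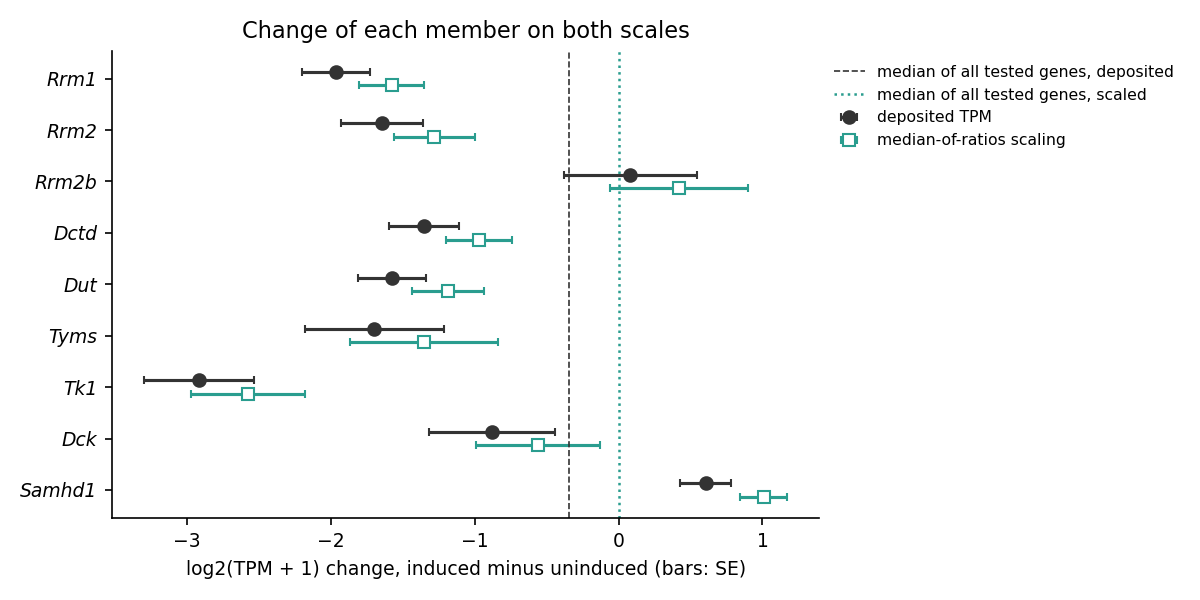
Change of each gene in log2(TPM + 1), induced minus uninduced, with standard errors, on the deposited scale (filled circles) and after median-of-ratios scaling (open squares); vertical lines mark the median change of all tested genes. The scaled values lie to the right of the deposited ones throughout, On the deposited and the scaled values alike, Tk1 is farthest to the left, at -2.91 and -2.57, and Samhd1 farthest to the right, at 0.61 and 1.01.

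In the salvage route, Tk1 (ENSMUSG00000025574, chr11:117815526-117826092, minus strand), the cytosolic thymidine kinase, was at 22.1, 23.7 and 20.3 TPM in uninduced and at 0.744, 3.71 and 2.45 TPM in induced libraries. It had the lowest change of the 9 genes, falling by 2.91 log2 units (SE 0.38, limma adjusted p 0.00263), and by 2.57 after median-of-ratios scaling (adjusted p 0.00933). The uninduced mean was 9.57 times the induced mean, and 27 of all tested genes had a lower log2 change. Dck (ENSMUSG00000029366, chr5:88764996-88783281, plus strand), which phosphorylates deoxycytidine and purine deoxynucleosides, was at 7.16, 6.61 and 6.82 TPM in uninduced and at 4.81, 1.15 and 5.23 TPM in induced libraries. The groups did not overlap, but induced replicate 2 stood well below the other induced libraries. Its log2 change of -0.88 did not pass (95% interval -1.86 to 0.096, limma adjusted p 0.222), and after median-of-ratios scaling the groups overlapped (-0.56, adjusted p 0.507). Without induced replicate 2 the change was -0.38 (limma adjusted p 0.556).

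Thymidylate can come from Tyms or from Tk1. The ratio of Tyms to Tk1 TPM was 0.509, 0.475 and 0.680 in uninduced libraries and 9.38, 0.910 and 0.355 in induced libraries. The 9.38 rests on Tk1 at 0.744 TPM and the 0.355 on Tyms at 0.871 TPM, both below 1 TPM. The induced ratios lay on both sides of the uninduced ones, and the shift of the within-library difference was 1.22 log2 units (exact two-sided permutation p 0.2, adjusted 0.28). It was 0.32 without induced replicate 1 and 1.86 without induced replicate 3. The ratio of Tyms to Dck was 1.57, 1.70 and 2.03 in uninduced and 1.45, 2.95 and 0.167 in induced libraries, also with overlap (exact two-sided permutation p 0.5, adjusted 0.583). The 0.167 rests on the same low Tyms value.

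Samhd1 (ENSMUSG00000027639, chr2:157097533-157135265, minus strand), the triphosphohydrolase that degrades deoxynucleoside triphosphates, was at 44.4, 48.2 and 47.1 TPM in uninduced and at 83.3, 65.7 and 66.5 TPM in induced libraries. Every induced library lay above every uninduced one, and induced replicate 1 was the highest. The log2 change was 0.61 (95% interval 0.21 to 1.00, SE 0.18), and its limma adjusted p of 0.0534 missed the threshold on the deposited scale. After median-of-ratios scaling it rose by 1.01 (SE 0.16, adjusted p 0.0122). Samhd1 passed under 5 of 17 alternative settings, including all 3 that change the scaling, and under none of the 6 that leave out a library. Samhd1 is known to be abundant in myeloid cells. Of 10 myeloid markers, 8 could be tested and 2, Prtn3 and Fcer1g, rose on the deposited scale (4 after median-of-ratios scaling) and 0 fell on either scale. At an unadjusted p under 0.05, 4 were higher and 3 lower, and the median log2 change was -0.057 (0.34 after scaling). The granule genes Mpo and Elane had log2 changes of -1.10 and -1.15 (limma adjusted p 0.173 and 0.155). The summed level of the 10 was 262 to 311 TPM in uninduced and 277 to 331 TPM in induced libraries, with Ctsg at 0 in the uninduced libraries. The 6 macrophage markers summed to 2.35 to 6.24 TPM in uninduced and 9.59 to 14.1 TPM in induced libraries, higher in each of the latter, and neither of the 2 that could be tested, Cd68 and C1qa, passed. The part of either marker list in the Samhd1 difference was not tested.

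A difference between 2 genes of the same library is almost unaffected by scaling. Rrm1 and Samhd1 were at similar levels in uninduced libraries, with Rrm1 to Samhd1 ratios of 1.22, 0.949 and 0.786. In induced libraries the ratios were 0.137, 0.189 and 0.133. The within-library difference moved by -2.57 log2 units, from -0.0443 ± 0.311 to -2.62 ± 0.262 (SD, n = 3 each). The groups were separate, and the exact two-sided permutation test gave p = 0.1, its lower limit with 3 libraries in each group (adjusted over 7 pairs 0.28). For Rrm2 and Samhd1 the difference moved by -2.25 log2 units, from -1.49 ± 0.267 to -3.74 ± 0.440 (SD, n = 3 each), with the same exact permutation p of 0.1 (adjusted 0.28). These were the only 2 of the 7 pairs in which the groups did not overlap.

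**Figure D3:**
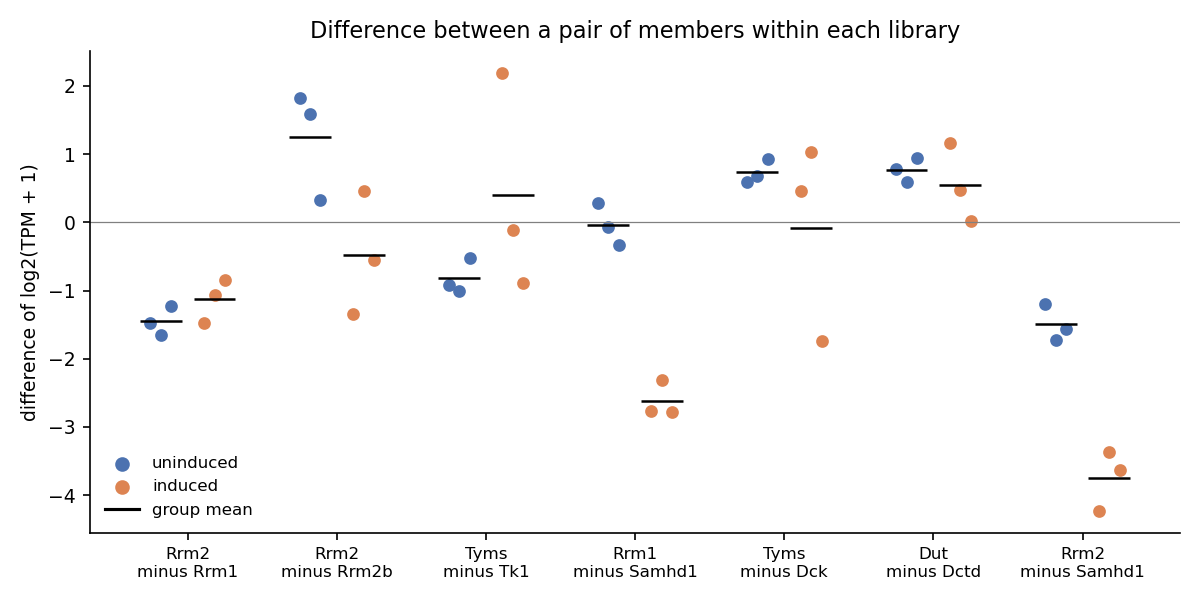
Difference of log2(TPM + 1) between both genes of a pair in each library, with points for libraries and lines for group means. Only the pairs with Samhd1 separate the groups: the 3 induced points of Rrm1 minus Samhd1 lie at or below -2.31 and the 3 uninduced points at or above -0.34.

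Summed over the de novo genes (Rrm1, Rrm2, Rrm2b, Dctd, Dut and Tyms), the uninduced libraries held 149.95, 134 and 146 TPM and the induced libraries 55.4, 45.6 and 41.6 TPM. The salvage genes (Tk1 and Dck) summed to 29.3, 30.3 and 27.2 TPM and to 5.56, 4.86 and 7.69 TPM. The mean sum was thus 3.02 times as high in uninduced as in induced libraries for the de novo genes, and 4.79 times as high for the salvage genes. The ratio of the de novo to the salvage sum was 5.12, 4.42 and 5.39 in uninduced and 9.97, 9.37 and 5.41 in induced libraries. It was higher in each induced library, though induced replicate 3 lay just above the highest uninduced one. Samhd1 was 0.296, 0.360 and 0.322 times the de novo sum in uninduced libraries and 1.504, 1.44 and 1.60 times in induced libraries. It held 19.9% to 22.7% of the TPM of the 9 genes in uninduced and 56.6% to 57.8% in induced libraries. No test was made of these sums, since the genes were chosen with earlier results known.

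**Figure D4:**
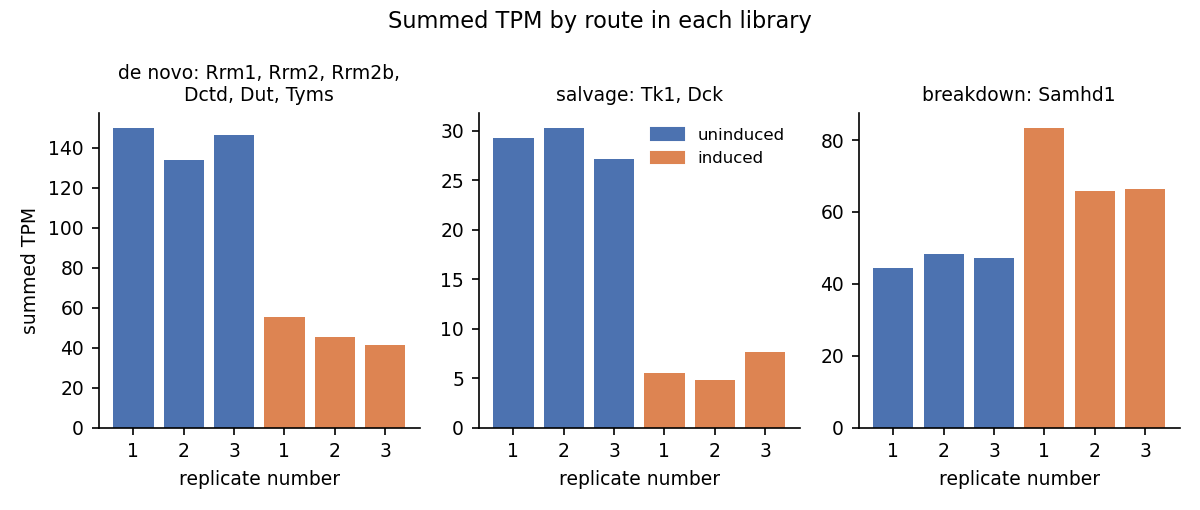
Summed TPM of the de novo genes, the salvage genes and Samhd1 in each library (bars from 0, a separate axis for each panel). The induced bars are lower for both synthetic routes and higher for Samhd1 in all 3 libraries.

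The order of the 9 levels also differed. In each uninduced library the 3 highest were Rrm1, Dut and Samhd1, in an order that varied, followed by Dctd and Tk1 in an order that varied, then Rrm2 in place 6 and Tyms in place 7, with Dck and Rrm2b last. Rrm1 and Samhd1 overlapped there, as did Rrm1 and Dut, and Dctd and Tk1. In each induced library Samhd1 was highest by several fold, and Rrm1 and Dut lay within places 2 to 4. The places of the other 6 genes varied among induced libraries, and Tk1 was in place 9, 6 and 8. Among all tested genes, the mean level of Rrm1 was at percentile 88.1 in uninduced and 60.4 in induced cells, that of Tk1 at 73.2 and 19.4, and that of Samhd1 at 88.4 and 94.9.

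Proliferation genes moved with these transcripts. Of 8 proliferation markers 7 fell, on the deposited scale and after median-of-ratios scaling alike, and their summed level was 176 to 211 TPM in uninduced and 21.8 to 30.7 TPM in induced libraries. Their part in the differences was not tested. Of 8 markers of the sorted cells 3 rose (Ly6a, Procr and Hlf) and 2 fell, among them Kit (5 and 1 after median-of-ratios scaling), at sums of 465 to 632 TPM in uninduced and 561 to 591 TPM in induced libraries, and all 8 were detected. Cd48, used to exclude cells, was at most 3.02 TPM. Erythroid markers summed to 392 to 466 TPM in uninduced and 622 to 726 TPM in induced libraries, with 5 of 8 tested markers higher and 1 lower (5 and 0 after median-of-ratios scaling), which was likewise not tested as a contribution. The B-cell markers Cd79a, Ebf1 and Pax5 and the T-cell markers Cd3d, Cd3e, Cd3g and Cd8a were listed at 0 in all 6 libraries. The only tested B-cell marker, Cd79b, was at 4.21, 9.86 and 7.06 TPM in uninduced and at 3.85, 3.11 and 3.59 TPM in induced libraries, which were separate and lower without passing the test (log2 change -0.77, limma adjusted p 0.197). Nkg7, the only tested marker of T and NK cells, was at 6.21, 15.8 and 5.84 TPM in uninduced libraries and listed at 0 in the induced ones, and fell on the deposited scale (limma adjusted p 0.00378) and after median-of-ratios scaling (adjusted p 0.00585). The megakaryocyte markers summed to 81.7 to 114 TPM in uninduced and 105 to 114 TPM in induced libraries, with 2 of 4 tested higher and 1 lower (2 and 0 after median-of-ratios scaling).

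Of the enzymes next to the 9 in the pathway, some fell on the deposited scale and the others did not pass. The lists were not tested against each other. Tyms consumes methylene-tetrahydrofolate, and of 9 tested genes of folate and thymidylate support 5 fell and 0 rose by limma (5 and 0 at an unadjusted p under 0.05), with a median log2 change of -1.52. After median-of-ratios scaling 4 fell. Shmt1, which makes that cofactor from serine, was at 24.8 ± 8.48 TPM in uninduced and 2.23 ± 0.507 TPM in induced libraries (SD, n = 3 each), a difference of -2.96 log2 units (limma adjusted p 0.00115). The folate enzymes Mthfd1l and Mthfd1 changed by -1.78 and -1.58 (limma adjusted p 0.00432 and 0.00450).

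Of 18 tested genes of ribonucleotide synthesis, which supply the substrates of ribonucleotide reductase, 10 fell and 0 rose by limma (12 and 1 at an unadjusted p under 0.05), with a median log2 change of -1.01, and 5 fell and 1, Adssl1, rose after median-of-ratios scaling. Ctps, which makes CTP, changed by -2.58, Cad, which starts pyrimidine synthesis, by -2.34, Pfas of purine synthesis by -1.98 and Impdh2, the step towards guanine nucleotides, by -1.77 (limma adjusted p 0.00583, 0.00130, 0.00549 and 0.00185). Of 19 nucleoside and nucleotide kinases 7 fell and 0 rose by limma (8 and 0 unadjusted), at a median of -0.46 that was close to that of all tested genes, and 3 fell after median-of-ratios scaling. Among those that fell were Adk at -1.50, Dtymk, which phosphorylates thymidylate, at -1.38 and Uck2 at -1.32 (limma adjusted p 0.0131, 0.0245 and 0.00565). Of these, Adk and Dtymk did not pass after median-of-ratios scaling (-1.14 and -0.99, limma adjusted p 0.0535 and 0.0955).

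Genes that break down, transport or sanitise nucleotides had a median of -0.44 over 18 tested genes, of which 6 fell and 0 rose by limma (7 and 1 at an unadjusted p under 0.05), and 2 fell and 1, Pnp, rose after median-of-ratios scaling. Dnph1, a deoxynucleoside monophosphate hydrolase, was at 17.9 ± 0.626 TPM in uninduced and 2.39 ± 0.820 TPM in induced libraries (SD, n = 3 each), a difference of -2.51 log2 units (limma adjusted p 0.00185). The pool-cleaning pyrophosphatases Dctpp1 and Nudt1 changed by -1.96 and -1.30, and Aprt, which salvages adenine, by -1.11 (limma adjusted p 0.00265, 0.0250 and 0.0148). After median-of-ratios scaling Nudt1 and Aprt did not pass (-0.94 and -0.71, limma adjusted p 0.0955 and 0.140). Of 20 genes of the replicative polymerases, clamp and ligase, which use the deoxynucleotides, 14 fell and 0 rose by limma (17 and 0 unadjusted), at a median of -1.67, and 11 fell after median-of-ratios scaling. Prim1, the primase subunit, changed by -2.93, Pole2 by -2.39, Lig1 by -2.30 and Fen1 by -2.16 (limma adjusted p 0.00170, 0.0131, 0.000705 and 0.00684).

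**Figure D5:**
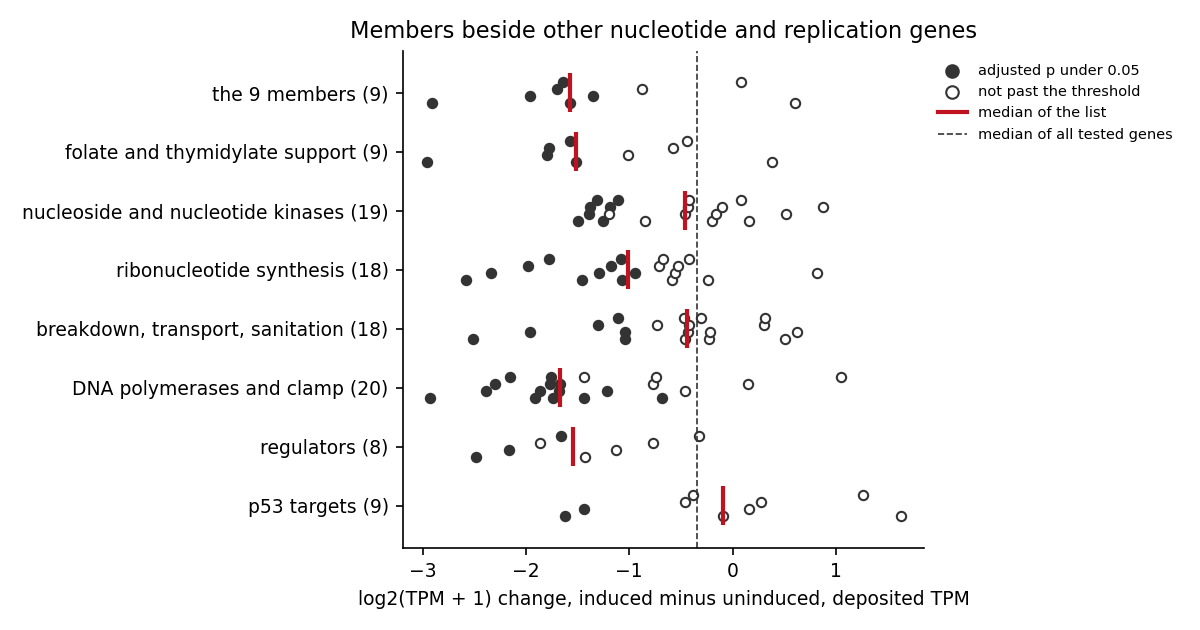
Log2 change of each tested gene of the 9-member set and of 7 related lists on the deposited scale, with filled points for a limma adjusted p under 0.05, open points for the rest, red bars for list medians and a dashed line for the median of all tested genes. The medians of the 9 genes, the folate list and the polymerase list lie near one another at -1.57, -1.52 and -1.67, while those of the kinase and breakdown lists lie near the dashed line at -0.46 and -0.44.

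Proteins that control these enzymes after translation were also measured as transcripts. Of 8 such genes 3 fell and 0 rose by limma (7 and 0 at an unadjusted p under 0.05), at a median of -1.55, and 2 fell after median-of-ratios scaling. Ccna2, whose kinase complex phosphorylates Samhd1 in cycling cells, changed by -2.48, Ccne1 by -2.16 and Cdc20 by -1.67 (limma adjusted p 0.00525, 0.0121 and 0.0257). Of these, Cdc20 did not pass after median-of-ratios scaling (-1.32, limma adjusted p 0.0850). Among p53 and its targets other than Rrm2b, 2 of 9 tested genes fell and 0 rose by limma (2 and 2 unadjusted), at a median of -0.095, which is above that of all tested genes. These were Aen, at -1.62 with overlapping groups (limma adjusted p 0.0467), and Trp53 itself, at -1.44 (limma adjusted p 0.00761). After median-of-ratios scaling 1, Trp53, fell and the list's median was 0.29, while Aen did not pass (-1.26, adjusted p 0.139). Transcript levels do not measure the enzymes' amounts or activities.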

How the data were processed

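Total RNA of 6 libraries was sequenced as stranded paired reads from pico-input libraries, per the labels' protocols. The authors deposited a single table of TPM, per the file headers and its name. The submitters' processing notes name bcl2fastq, HISAT2, StringTie, DESeq2 and the build GRCm38, and versions, annotation release and strand setting are not given in the sources used here. The deposited percent of G and C of each gene was not used. TPM keeps no sequencing depth, so the depth is unknown and no counting interval is given.

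Rows (60496) were summed per gene ID, and log2(TPM + 1) was tested with limma 3.58.1 in R 4.3.3 (variance trend, two-sided, Benjamini-Hochberg over the 13470 genes averaging 1 TPM or more, threshold 0.05). Fold changes on this scale understate those of low genes. The limma step was checked on simulated data. Pairs were tested by exact permutation (scipy 1.17.1). Coordinates are from GENCODE on GRCm38. BLAST 2.17.0 found pseudogene copies of at least 90% identity over 200 bases. All 9 members are named, and of each other list up to 4 called genes with the largest change, and a few genes that this rule or a marker list would name are not reported here. Members and lists were chosen with earlier results of these data known. Alternatives covered scaling, pseudocount, filter, row handling, variance model, replicate block and leaving out each library.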

Additional observations from a re-analysis of the deposited data

How the results depend on the processing

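Results were recomputed under 17 alternatives. Rrm1, Rrm2, Dctd, Dut and Tk1 were called lower under all 17, and Dck and Rrm2b were called under none. The 6 members called lower were 5 to 6 throughout, Tyms being the call lost. The count of members called higher went from 0 to 1, Samhd1, under median-of-ratios scaling, quantile normalization, rescaling to nuclear protein-coding genes, a mean of at least 5 TPM and array weights, with adjusted p from 0.00417 to 0.04997. Its adjusted p ranged up to 0.190 over the alternatives. The total of 1549 genes called (174 higher, 1375 lower) became 806 (388 and 418) with median-of-ratios scaling, 814 (374 and 440) with quantile normalization and 944 (465 and 479) with rescaling. It was 752 (96 and 656) with no filter and 767 (108 and 659) with no variance trend. With libraries left out in turn it was 611 to 1276 (77 to 131 higher, 527 to 1146 lower), the lowest without induced replicate 2. The Rrm2b change ranged from -0.21 to 0.52 with libraries left out and was below 0 without uninduced replicate 1, uninduced replicate 2 or induced replicate 1. The Dck change ranged from -1.15 to -0.38, the shift of Tyms minus Tk1 from 0.32 to 1.86 and that of Rrm2 minus Rrm1 from 0.18 to 0.49. The shift of Tyms minus Dck ranged from -1.37 to 0.011 and that of Dut minus Dctd from -0.52 to 0.045, each above 0 only without induced replicate 3. With libraries left out in turn, the de novo to salvage ratio differed by 2.42 to 4.69 between the groups, against 3.27 with all libraries. The lowest was without induced replicate 1 and the highest without induced replicate 3. The difference in summed TPM went from -95.9 to -68.9 for the de novo genes, from -22.9 to -17.9 for the salvage genes and from 25.3 to 41.5 for Samhd1 under median-of-ratios scaling. Beyond fewer genes or samples in some settings, the cause was not tested.

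Under the replicate block, 902 genes were called (782 lower), 882 of them shared with the fit without it. Of the members, 5 stayed lower, and Tyms was lost (adjusted p 0.0637). Same-numbered libraries share only a number: the correlations of their deviations from the group means were 0.0215, -0.0152 and 0.0172. Not every library correlated best with the one of its own number.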

Other observations

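Thymidine and purine deoxynucleosides are also salvaged in mitochondria, by Tk2 and Dguok, which are named here after their values were seen. Tk2 was at 17.9 ± 4.42 TPM in uninduced and 26.5 ± 8.19 TPM in induced libraries (SD, n = 3 each), a log2 change of 0.52 with overlapping groups (limma adjusted p 0.256). Dguok had 18.3 ± 6.46 and 20.1 ± 5.69 TPM (SD, n = 3 each), with a change of 0.16 (limma adjusted p 0.793). In induced libraries Tk2 was the more abundant of the thymidine kinase transcripts, with Tk1 at 2.30 ± 1.49 TPM (SD, n = 3), while in uninduced libraries Tk1 was at 22.0 ± 1.65 TPM (SD, n = 3). Whether Tk1 and Tk2 changed differently was not tested. Pnp, which releases bases from purine nucleosides and was also picked after its values were seen, was at 35.4 ± 5.70 TPM in uninduced and 55.4 ± 12.04 TPM in induced libraries (SD, n = 3 each), a change of 0.62 (limma adjusted p 0.0993) that passed on the median-of-ratios scale (1.02, adjusted p 0.0146). The p53 targets Bbc3 and Trp53inp1 had separate groups with higher induced levels, at log2 changes of 1.26 and 1.63, and missed the threshold (limma adjusted p 0.0775 and 0.0669).

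Over the 6 libraries, the patterns closest to Rrm2 in log2(TPM + 1) were those of Gm10335, Slc22a3 and Tbkbp1, each with a Pearson r that rounds to 0.996 or more. As many as 386 tested genes had an r above 0.95 with Rrm2, 36 with Samhd1 and 11 with Rrm2b. The closest to Samhd1 were Myo7a, Nkx2-3 and Gm15918 (r rounding to 0.989 or more), and those to Rrm2b were Mir3474, Timmdc1 and Sapcd1 (r rounding to 0.980 or more). These r values were taken over all 6 libraries, across both groups. How far they follow the difference between the groups was not tested, and they are a description only.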
